A study of Mus musculus with 6 samples.

Results

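The genes described here are 49 genes of DNA replication and mitosis, followed as a read on dividing cells in testes that hold spermatogonia but few later germ cells. They were chosen by name from the known machinery of the cell cycle, and each was read from its brightest probe set, a probe set being the group of array probes that reports 1 gene. A value was found for 48 of the 49, among 18194 genes measured in all, and Ccnb1 was not analysed here. RNA of whole testes was measured on 6 Affymetrix arrays as log2 expression, where 1 unit is a doubling. The mice were 12 weeks old. All of them carried jsd (juvenile spermatogonial depletion), a mutation of Utp14b, so the 3 samples labelled jsd are the controls and not wild type. The mice of the 3 samples labelled SCARKO-jsd carried in addition a conditional knockout made in Sertoli cells, the somatic nurse cells of the tubule. The driver of that knockout is not given in the sources read. The labels also spell this group SCARCO-jsd and SCARO-jsd. Every difference below is SCARKO-jsd minus jsd, and the values of a group are given in the order of its replicates 1, 2 and 3.

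A cell that copies its DNA first loads the ring-shaped Mcm2 to Mcm7 helicase onto origins, with Cdc6 and Cdt1 as loaders, and then fires it with Cdc45 and the GINS complex. Cyclins and their kinases drive the steps from one phase to the next, and at mitosis the centromeres of the chromosomes bind spindle microtubules under a checkpoint that delays division until all are attached. In a testis of this kind spermatogonia are the main cells known to divide, since adult Sertoli cells do not, while vessel, connective and immune cells can add some of these transcripts. In RNA of a whole testis, fewer dividing cells and less RNA per cell cannot be told apart.

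The array SCARKO-jsd 2 stood apart from the rest. Its correlation with the other arrays across genes was 0.952 to 0.973, against 0.973 to 0.994 among the other 5 (across genes, which are no independent replicates). The gap between the 3' and 5' probe sets of beta-actin, which widens as RNA is broken or copied incompletely, was 1.66 log2 units in SCARKO-jsd 2 and 0.70 to 0.98 in the other 5 arrays. For Gapdh it was 0.64 against -0.285 to -0.102. Results are therefore given with and without that array. Rhox5, a homeobox gene of Sertoli cells that depends on androgen, was 9.74 to 10.43 in the jsd arrays and 5.44 to 6.11 in the SCARKO-jsd arrays, and the groups were far apart, as their labels call for.

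Most replication and mitosis genes were somewhat higher in SCARKO-jsd testes, but few passed the test. Cenpf, Cenpe and Cenpa, which act at the centromere, rose, and Cdk1, the kinase that starts mitosis, fell. Of the 48 genes with a value, 41 were bright enough to be tested, and 7 lay in the lowest 40% of genes (Cdc6, Tyms, Ccne2, Aurkb, Birc5, Plk1 and Kif11). The jsd means of Ttk, Kif20a, Nusap1, Mcm10, Cenpe and Kif4 also lay below the limit of that filter (6.64). These genes were tested only because their SCARKO-jsd values were higher. The test was limma's, with the threshold of 0.05 on p-values adjusted by Benjamini-Hochberg over all 10916 genes tested. It called 3 members higher, where 1.78% of all genes tested were, and 1 lower, where 1.8% were, and 37 did not pass. The called share was 9.76% of the 41, where 3.57% of all genes tested were called. The median log2 fold change of the 41 was 0.39, against 0.04 over all genes tested, and 34 of the 41 were above 0, where 59.8% of all genes were. Without SCARKO-jsd 2 the median was 0.20 (all genes 0.00), and 29 of the 41 were above 0 (all genes 50.8%). With all arrays and no filter on dim genes the median of the 48 was 0.39 (all genes 0.04).

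**Figure D1:**
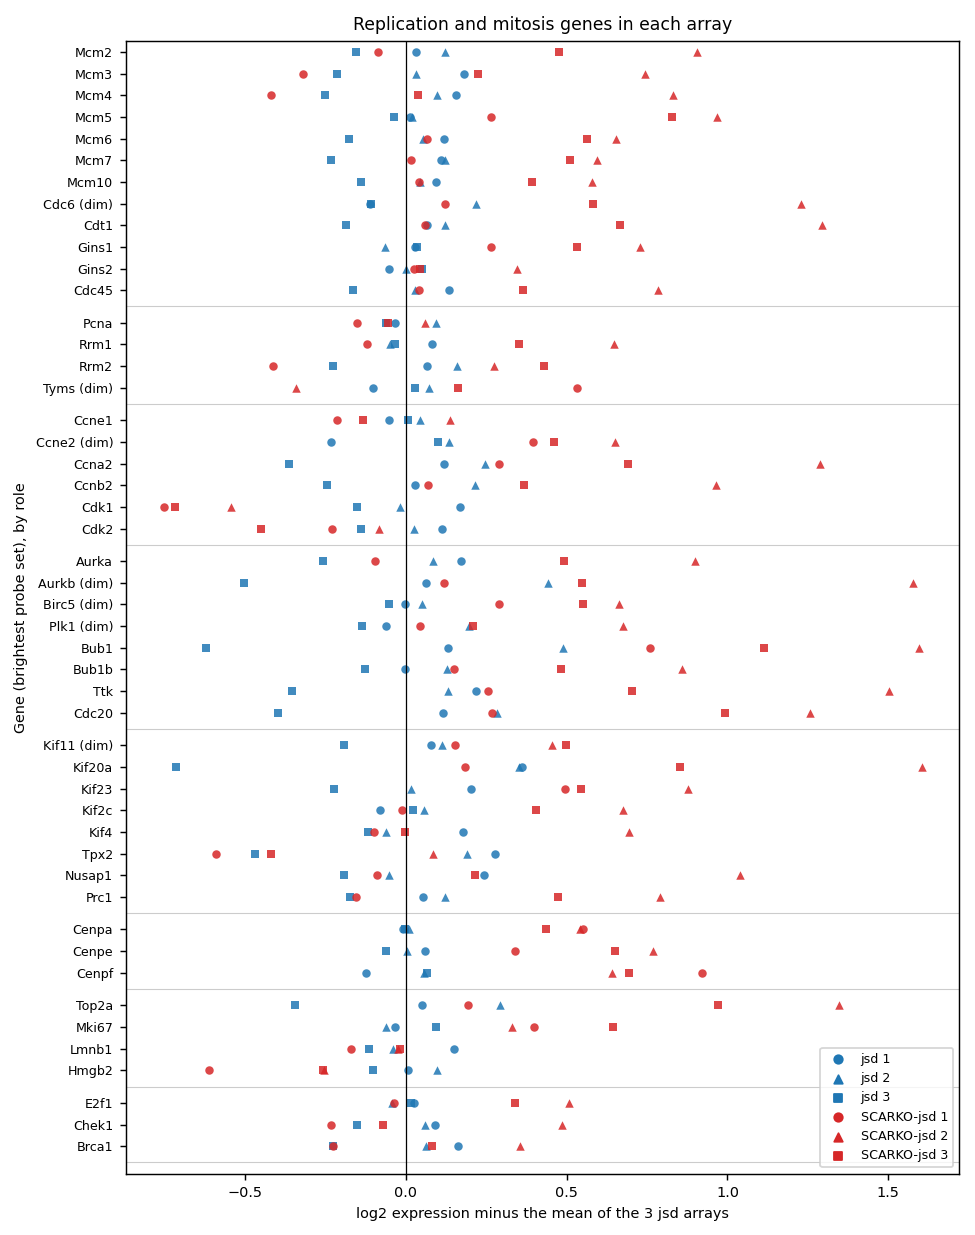
Log2 expression of the 48 measured genes in each array, minus the mean of the 3 jsd arrays, by role from top to bottom (blue, jsd; red, SCARKO-jsd; circles, triangles and squares, replicates 1, 2 and 3; dim genes were not tested). The triangle of SCARKO-jsd 2 lies farthest right for 31 of the 41 tested genes (48.7% of all genes tested). For Cenpa, Cenpe and Cenpf all 3 red points lie to the right of the blue ones, and for Cdk1 all 3 lie to the left.

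The SCARKO-jsd arrays were unlike each other. SCARKO-jsd 2 lay above every jsd array for 35 of the 41 tested genes and SCARKO-jsd 3 for 28, but SCARKO-jsd 1 for 11. Over all genes tested those shares were 56.5%, 36.2% and 25.7%. SCARKO-jsd 1 was below every jsd array for 12 of the 41, or 29.3%, against 35.4% of all genes tested. The median of the 41 genes relative to the jsd mean was 0.02 in SCARKO-jsd 1, 0.69 in SCARKO-jsd 2 and 0.43 in SCARKO-jsd 3. Among the jsd arrays, jsd 3 was the lowest of all 6 arrays for 22 of the 41, against 21.8% of all genes. The groups did not overlap for 13 of the 41 genes, 11 with SCARKO-jsd higher and 2 with it lower, where 24.6% of all genes tested did not overlap, 15.1% higher and 9.49% lower.

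The centromere genes rose in every SCARKO-jsd array. Cenpf, a large protein of the kinetochore and nuclear matrix that accumulates before mitosis, was 7.86, 8.04 and 8.05 in the jsd arrays and 8.90, 8.62 and 8.67 in the SCARKO-jsd arrays. The groups were far apart, and SCARKO-jsd 1 was the highest array here. Cenpf rose 1.68-fold (log2 fold change 0.75 ± 0.11 SE, limma, adjusted p = 0.0129). Cenpa, the histone H3 variant that marks the centromere, was 7.89, 7.91 and 7.90 in the jsd arrays and 8.45, 8.44 and 8.34 in the SCARKO-jsd arrays. Its jsd values almost coincided, and it rose 1.42-fold (0.51 ± 0.08, limma, adjusted p = 0.0180). Cenpe, a kinesin that carries chromosomes to the spindle equator, was 6.61, 6.55 and 6.48 in the jsd arrays and 6.89, 7.32 and 7.20 in the SCARKO-jsd arrays. It rose 1.503-fold (0.59 ± 0.12, limma, adjusted p = 0.0474), with the smallest gap between the groups in SCARKO-jsd 1. The jsd mean of Cenpe, 6.55, was below the level under which genes were left out as dim (6.64), and so close to background its fold is less sure. Its call was also lost with no filter on dim genes, a further quantile normalization, the trend and robust options, median centring and every probe set tested by itself (limma, adjusted p of 0.0522 to 0.102).

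The calls did not rest on SCARKO-jsd 2. Without it Cenpf (0.81), Cenpa (0.49) and Cenpe (0.50) kept their calls (limma, adjusted p = 0.00511, 0.0137 and 0.0368). Each of the 3 lost its call when SCARKO-jsd 3, jsd 1 or jsd 2 was left out, as Cenpa and Cenpe did without jsd 3 (limma, highest adjusted p 0.0790 for Cenpf, 0.1 for Cenpa and 0.174 for Cenpe), with log2 fold changes of at least 0.67, 0.49 and 0.50 in that order. A second bright probe set of Cenpa gave 0.27. With the mean of its probe sets Cenpa was at 0.25 and not called (adjusted p = 0.242), and Cenpe and Cenpf were then too dim to be tested.

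**Figure D2:**
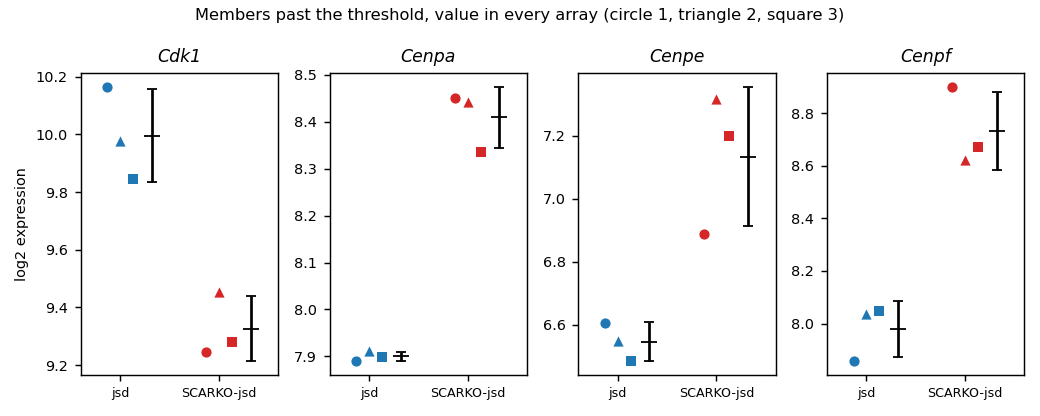
Log2 expression of the 4 genes past the threshold in each array (circles, triangles and squares, replicates 1, 2 and 3), with the mean and SD of 3 arrays beside the points; each panel has its own axis, which does not start at 0. Cdk1 is lower and Cenpa, Cenpe and Cenpf are higher in all 3 SCARKO-jsd arrays, and for Cenpf SCARKO-jsd 1 is the highest at 8.90.

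Cdk1 was the only member that fell. In its role group, the cyclins and their kinases, 2 of 5 tested genes were above 0, where 59.8% of all genes tested were. The median of the group was -0.07 (-0.17 without SCARKO-jsd 2). Cdk1 was 10.17, 9.98 and 9.85 in the jsd arrays and 9.24, 9.45 and 9.28 in the SCARKO-jsd arrays, with no overlap. It fell 1.59-fold (log2 fold change -0.67 ± 0.11 SE, limma, adjusted p = 0.0209) on its single probe set. The fall was -0.73 without SCARKO-jsd 2 (adjusted p = 0.00780), while the call was lost when any of jsd 1, jsd 2, SCARKO-jsd 1 and SCARKO-jsd 3 was left out (limma, adjusted p of 0.0558 to 0.0986) and with each array centred on its median (-0.63, adjusted p = 0.0651) or every probe set tested by itself (adjusted p = 0.0577). Cdk2, which works with the E and A cyclins in S phase, was 9.89, 9.80 and 9.64 in the jsd arrays and 9.55, 9.69 and 9.33 in the SCARKO-jsd arrays. These ranges overlapped, and the difference of -0.26 (95% interval -0.54 to 0.03) did not pass (limma, adjusted p = 0.327).

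The cyclins that pair with these kinases did not pass the test. Ccna2, the A cyclin of S phase and mitotic entry, was 8.51, 8.64 and 8.03 in the jsd arrays and 8.69, 9.68 and 9.09 in the SCARKO-jsd arrays. Every SCARKO-jsd array was above every jsd array, SCARKO-jsd 1 narrowly, and the difference was 0.76 ± 0.26 (SE, limma, adjusted p = 0.182). Its second bright probe set gave 0.41. Ccnb2, a B cyclin of mitosis, was higher by 0.47 and Ccne1, an E cyclin of the entry into S phase, differed by -0.07 (adjusted p = 0.335 and 0.787). Ccne2 was dim in every array (4.98 to 5.87).

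The promoters of the called genes with the smallest p are shown, a choice made by p and not by direction. They were taken from RefSeq (GRCm38.p6), which held a promoter for 40 of the 49 genes, and cover the 250 bases before the start of the gene, 5' to 3' on its own strand. Capitals mark matches, on either strand, to CCAAT, the box bound by NF-Y, which reads ATTGG on the other strand. They also mark matches to forms of the E2F site, which were the word TTCCCGC, the word TTGGCGC, the word TTCGCGC and the word TTGCCGC, and to the cell cycle homology region, either TTTGAA or the variant TTCGAA. Those of Cenpf (chr1:189688087-189688336, minus strand), Cenpa (chr5:30666636-30666885, plus strand) and Cdk1 (chr10:69352913-69353162, minus strand) read as follows.
Cenpf: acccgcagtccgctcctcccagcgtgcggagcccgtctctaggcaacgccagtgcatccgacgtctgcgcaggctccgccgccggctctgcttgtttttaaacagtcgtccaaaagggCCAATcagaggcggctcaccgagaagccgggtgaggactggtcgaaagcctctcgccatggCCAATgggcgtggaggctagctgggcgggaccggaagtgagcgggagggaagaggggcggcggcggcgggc
Cenpa: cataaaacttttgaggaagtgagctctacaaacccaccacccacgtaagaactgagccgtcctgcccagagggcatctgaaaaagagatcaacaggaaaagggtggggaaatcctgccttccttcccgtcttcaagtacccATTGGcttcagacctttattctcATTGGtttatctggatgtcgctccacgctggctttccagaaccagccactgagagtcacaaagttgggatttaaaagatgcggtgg
Cdk1: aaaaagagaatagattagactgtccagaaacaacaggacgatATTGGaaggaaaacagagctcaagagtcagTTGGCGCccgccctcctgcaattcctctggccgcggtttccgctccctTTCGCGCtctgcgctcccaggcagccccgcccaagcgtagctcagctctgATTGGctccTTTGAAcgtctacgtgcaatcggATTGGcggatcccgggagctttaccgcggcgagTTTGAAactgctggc

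Cenpf held CCAAT starting 132 and 71 bases before the start, and Cenpa held its complement at 109 and 86. Neither had an E2F or homology region word in this window. Cdk1 held 3 CCAAT matches (208, 80 and 48 bases before the start), 2 E2F words (178 and 130) and 2 homology region words (71 and 15). Mcm7 (0.37) and Mki67 (0.46), higher in SCARKO-jsd without a call, also held words of all 3 kinds. A link between the words and the direction of change was not tested. A CCAAT match was found in 31 of 40 members, 77.5%, against 37.5% of the 27025 genes of the promoter table and 40.4% of the tested genes found there. An E2F word was found in 10 of 40 members (9.01% of all genes, 16.7% of tested genes) and a homology region word in 13 of 40, 32.5% (19.6% and 14.2%). Short words match often, the E2F words can share bases with one another, and a match is a description, not a site in use.

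Genes that load and fire replication origins were higher on balance, without a call. All 11 tested members of this group had log2 fold changes above 0, where 59.8% of all genes tested did. They ran from 0.14 to 0.69 with a median of 0.40. Without SCARKO-jsd 2 the median was 0.22 and 9 were above 0 (all genes 50.8%). The median of the 11 genes relative to the jsd mean was 0.04, 0.745 and 0.48 in SCARKO-jsd 1, 2 and 3, so SCARKO-jsd 1 hardly differed. Mcm5, a subunit of the helicase ring, was 8.74, 8.75 and 8.69 in the jsd arrays and 8.99, 9.69 and 9.56 in the SCARKO-jsd arrays. The groups did not overlap, and the difference was 0.69 ± 0.17 (SE, limma, adjusted p = 0.0837). Mcm5 passed without SCARKO-jsd 1, its lowest SCARKO-jsd array (0.90, limma, adjusted p = 0.0117), but not without any other array (0.0752 to 0.259). Gins1, of the GINS complex that joins the helicase, was 7.02, 6.93 and 7.03 against 7.26, 7.72 and 7.53. It did not overlap either, and was higher by 0.51 ± 0.13 (limma, adjusted p = 0.0792). Without SCARKO-jsd 1, again its lowest SCARKO-jsd array, it passed (0.63, limma, adjusted p = 0.0343), but not without any other array (0.0628 to 0.266).

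The other subunits of the ring differed less. Mcm2 was higher by 0.43, Mcm6 by 0.43, Mcm7 by 0.37, Mcm3 by 0.22 and Mcm4 by 0.15, and the arrays of the groups overlapped for each. Mcm3 and Mcm4 were below 0 without SCARKO-jsd 2 (-0.05 and -0.19), so their direction rested on that array. Their further bright probe sets gave 0.05 to 0.24 for Mcm3, 0.35 for Mcm4, 0.60 for Mcm2, 0.59 for Mcm5, 0.52 for Mcm6 and 0.24 to 0.41 for Mcm7. Cdt1, which brings the ring to origins, was 8.07, 8.12 and 7.82 in the jsd arrays and 8.06, 9.30 and 8.67 in the SCARKO-jsd arrays. SCARKO-jsd 1 thus lay among the jsd arrays, and the difference of 0.67 (limma, adjusted p = 0.261) came to 0.36 without SCARKO-jsd 2. Cdc45 (0.40), Mcm10 (0.34), which helps to start the helicase, and Gins2 (0.14) overlapped as well.

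None of the 3 tested members that form the sliding clamp or ribonucleotide reductase passed by limma, at an adjusted or an unadjusted p under 0.05. Pcna, the clamp that holds the polymerase on DNA and a common marker of S phase, was 11.25, 11.38 and 11.22 in the jsd arrays and 11.13, 11.34 and 11.23 in the SCARKO-jsd arrays. The groups lay over each other, with a difference of -0.05 and a 95% interval of -0.27 to 0.17. Rrm1 and Rrm2, the subunits of ribonucleotide reductase, had differences of 0.29 and 0.10 (limma, adjusted p = 0.449 and 0.850), with intervals of -0.13 to 0.72 and -0.41 to 0.61. Another bright probe set of Rrm1 gave -0.11. Tyms, which makes thymidylate, had low values throughout (4.56 to 5.44) on the probe sets named for it alone, and a further probe set named for Tyms and Tyms-ps together was not used.

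Of 8 mitotic kinases and checkpoint genes 5 were tested, without a call by limma. At an unadjusted p under 0.05, 4 of the 5 were higher, where 10.9% of all genes tested were. The median difference of the 5 was 0.82, and that of all 8, with the 3 dim genes, was 0.62. Without SCARKO-jsd 2 the median of the 5 was 0.48, close to the 0.50 of the centromere genes. Bub1, a checkpoint kinase at the kinetochore, was 7.01, 7.37 and 6.27 in the jsd arrays and 7.64, 8.48 and 7.996 in the SCARKO-jsd arrays. The groups did not overlap, but the jsd arrays ranged over more than 1 unit, and the difference of 1.16 ± 0.30 (SE) did not pass (limma, adjusted p = 0.0922). Without SCARKO-jsd 2 the difference was 0.94. Cdc20, the activator of the anaphase-promoting complex, was 8.64, 8.80 and 8.12 against 8.79, 9.78 and 9.51. SCARKO-jsd 1 lay just under jsd 2, and Cdc20 was higher by 0.84 ± 0.27 (adjusted p = 0.160). Its further bright probe sets gave 0.73 and 0.61, without overlap. Ttk, the kinase that starts the checkpoint, was 6.59, 6.50 and 6.01 against 6.62, 7.87 and 7.07. Its groups nearly touched, and the difference of 0.82 (adjusted p = 0.211) was 0.48 without SCARKO-jsd 2. The jsd mean of Ttk was below the dim limit of 6.64, so its difference is less sure.

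Bub1b, the BubR1 arm of the checkpoint, was higher by 0.50 and Aurka, a spindle pole kinase, by 0.43, neither past the test (limma, adjusted p = 0.191 and 0.408). Aurkb, Birc5 and Plk1 were too dim to be tested. Their differences, as values, were 0.75, 0.50 and 0.31.

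Among motors and spindle proteins 6 of 7 tested genes were above 0, where 59.8% of all genes tested were. Their median was 0.37 (0.16 without SCARKO-jsd 2), with no call by limma. Relative to the jsd mean the median of the 7 was -0.09, 0.79 and 0.41 in SCARKO-jsd 1, 2 and 3. Of the 7, 1 was higher at an unadjusted p under 0.05, where 10.9% of all genes tested were. Kif20a, a kinesin of cell separation, was 6.82, 6.81 and 5.74 in the jsd arrays and 6.64, 8.06 and 7.31 in the SCARKO-jsd arrays. Here jsd 3 was low and SCARKO-jsd 2 high, SCARKO-jsd 1 lay among the jsd arrays, and the difference of 0.88 had a 95% interval of -0.06 to 1.81. Kif23, another kinesin of the midzone, was 7.69, 7.51 and 7.27 against 7.98, 8.37 and 8.03. It did not overlap and was higher by 0.64 ± 0.15 (SE, limma, adjusted p = 0.0623). It passed without SCARKO-jsd 2 (0.52, limma, adjusted p = 0.0499), but not without any other array (up to 0.197). Nusap1 (0.39), Prc1 (0.37), Kif2c (0.36) and Kif4 (0.20) overlapped, and Kif4 was at -0.05 without SCARKO-jsd 2.

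Tpx2, which activates Aurka on spindle microtubules, was the 1 tested gene of this group with a negative value. It was 8.69, 8.60 and 7.94 in the jsd arrays and 7.82, 8.499 and 7.995 in the SCARKO-jsd arrays. The ranges overlapped through jsd 3 and SCARKO-jsd 2, and the difference was -0.31 (limma, adjusted p = 0.551). A further bright probe set gave -0.74, with no overlap.

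Among chromatin proteins, Top2a and Mki67 were higher and Hmgb2 lower, all outside the threshold. Top2a, which untangles chromosomes before they part, was 7.79, 8.03 and 7.39 in the jsd arrays and 7.93, 9.09 and 8.71 in the SCARKO-jsd arrays. SCARKO-jsd 1 lay among the jsd arrays, and Top2a was higher by 0.84 ± 0.29 (SE, limma, adjusted p = 0.185). Mki67, the Ki-67 protein that coats mitotic chromosomes and marks cycling cells, was 7.71, 7.68 and 7.84 against 8.14, 8.07 and 8.39. In contrast to Top2a, all 3 SCARKO-jsd arrays were above the jsd arrays, by 0.46 ± 0.11 (limma, adjusted p = 0.0699). Mki67 passed without SCARKO-jsd 2, here the lowest SCARKO-jsd array (0.52, limma, adjusted p = 0.0253), but not without any other array (up to 0.256). Hmgb2, a DNA-bending protein plentiful in germ cells, was 9.15, 9.24 and 9.05 against 8.54, 8.89 and 8.89. It did not overlap and differed by -0.37 ± 0.12 (adjusted p = 0.163), while its second bright probe set gave -0.12.

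Lmnb1, of the nuclear lamina, differed by -0.07, and E2f1, which switches on S-phase genes, by 0.27. Chek1, the kinase that halts the cycle when replication stalls, was at 0.06 and Brca1, of DNA break repair, at 0.07. The 95% intervals of these 4 genes all included 0, from -0.37 at the lowest to 0.60 at the highest. Chek1 and Brca1 were at -0.15 and -0.07 without SCARKO-jsd 2.

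**Figure D3:**
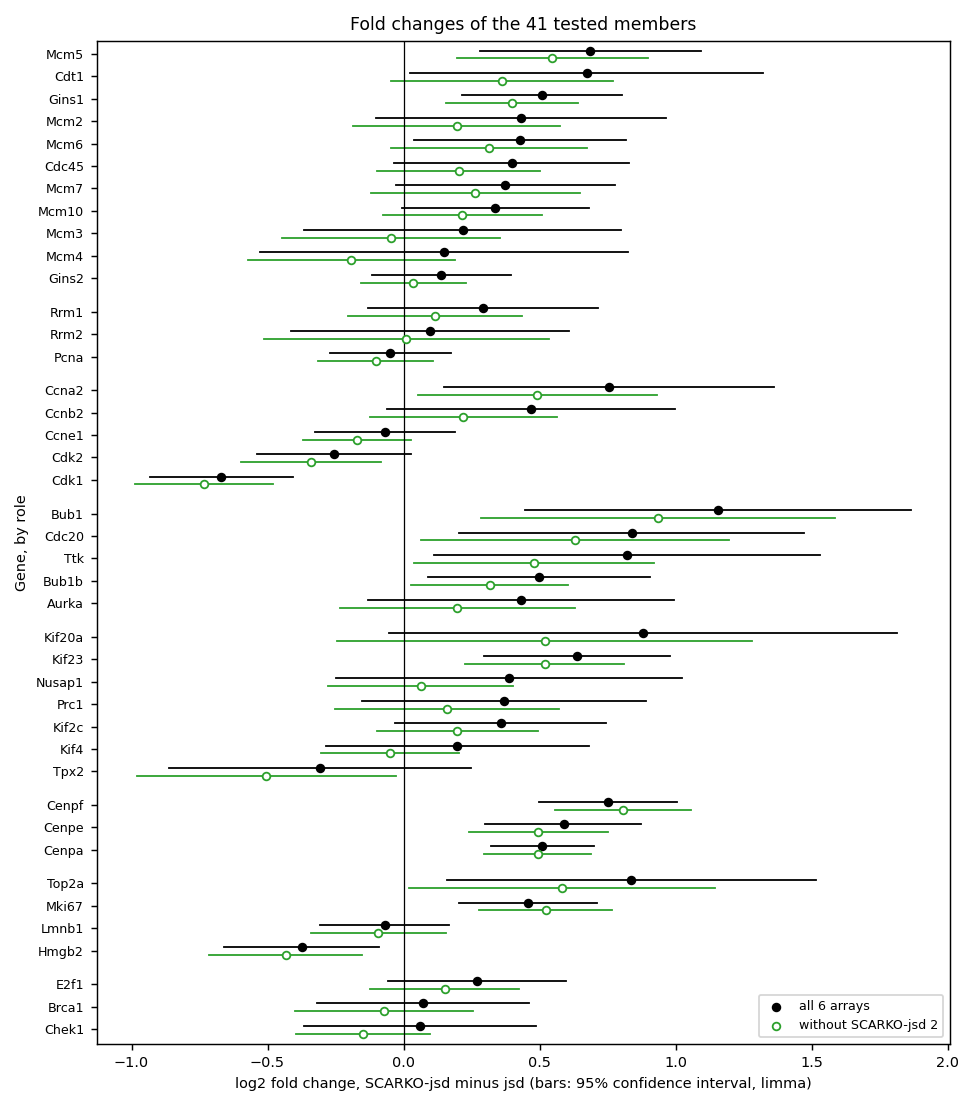
Log2 fold change (SCARKO-jsd minus jsd) of the 41 tested genes with its 95% confidence interval from limma, by role, with all 6 arrays (black) and without SCARKO-jsd 2 (green, open). Leaving that array out moves most points towards 0, the median going from 0.39 to 0.20, and leaves Cdk1 and the centromere genes close to where they were.

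Where a gene had further bright probe sets, these mostly had the sign of the brightest. There were 25 such probe sets for 18 genes, 23 of them of the same sign, and the exceptions were those of Rrm1 (-0.11) and Ccne1 (0.00). Probe sets of a gene share its RNA, so they are not replicates. The brightest probe set of 6 members is of a type (_x_at) whose probes can bind other transcripts, and that of another 6 (_s_at) can match transcripts of more than 1 gene. Mcm5 and Cdc20 are of the first type, and none of the 4 called genes is of either type.

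The rest of the machinery was read from 9 further lists with 132 tested genes, of which 3 rose, 3 fell and 126 did not pass, 4.55% called against 3.57% of all genes. Their median was 0.13, and 0.06 without SCARKO-jsd 2. Without that array 6 rose and 6 fell, where 7.04% of all genes were called. Cdca5 (sororin), which protects the cohesion of sister chromatids, was 6.97, 7.10 and 6.77 in the jsd arrays and 7.55, 8.39 and 7.98 in the SCARKO-jsd arrays. With no overlap it rose 2.04-fold (log2 fold change 1.03 ± 0.21 SE, limma, adjusted p = 0.0396). A second bright probe set of Cdca5 gave 0.53. Dck, which salvages deoxynucleosides, rose by 0.64 ± 0.13 and Cenpp, a subunit of the inner kinetochore, by 0.61 ± 0.13 on the log2 scale (limma, adjusted p = 0.0448 and 0.0478).

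The 3 genes that fell act as brakes or in repair. Cdkn2b, the p15 inhibitor of the D-cyclin kinases, was 9.06, 8.70 and 8.74 in the jsd arrays and 7.17, 7.75 and 6.96 in the SCARKO-jsd arrays. Every SCARKO-jsd array was far below every jsd array, and Cdkn2b fell 2.90-fold (-1.54 ± 0.21 SE, limma, adjusted p = 0.00927). Exo1, a nuclease of mismatch repair and recombination, was 8.73, 8.61 and 8.23 against 6.91, 7.52 and 7.08. It fell 2.55-fold (-1.35 ± 0.19, adjusted p = 0.0111), and its second probe set, which is dim, gave -1.29. Rb1, the retinoblastoma protein that holds E2F in check, was 10.36, 10.26 and 10.18 against 9.53, 9.86 and 9.59 and fell 1.52-fold (-0.61 ± 0.11, adjusted p = 0.0301), while a dim probe set gave 0.12.

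All 6 calls held without SCARKO-jsd 2, but each was lost without some other array. That of Cdkn2b ended without jsd 1 (limma, adjusted p = 0.0604) and that of Exo1 without SCARKO-jsd 3, jsd 1 or jsd 2 (up to 0.0696). Those of Cdca5 and Dck were lost when SCARKO-jsd 3 or any jsd array was left out (up to 0.162 and 0.188). Those of Rb1 and Cenpp ended without any of the 5 arrays other than SCARKO-jsd 2 (up to 0.152 and 0.207). With the mean of probe sets Cdca5 was at 0.78, Dck at 0.43 and Rb1 at -0.24, none called (adjusted p = 0.114, 0.206 and 0.226). With every probe set tested by itself Cdca5, Dck, Cenpp and Rb1 were not called (0.0712 to 0.103), nor were Dck, Cenpp and Rb1 with median centring (0.0723, 0.0861 and 0.11). Dck and Cenpp also lost their calls with no filter on dim genes (0.0531 and 0.057), and Cenpp with a further quantile normalization (0.0619) and the trend and robust options (0.0507).

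By list, 38 tested genes of origins and the fork had a median of 0.13 and no call by limma, with 10 higher and 1 lower at an unadjusted p under 0.05, where 10.9% and 7.01% of all genes tested were. Rfc4, of the clamp loader, was higher by 0.64, Gmnn (geminin), which blocks Cdt1, by 0.38 and Pold1, a replicative polymerase, by 0.52 (adjusted p = 0.0574, 0.0844 and 0.0958). Among 22 kinetochore genes 1 rose and 21 did not pass, 4.55% called against 3.57% of all genes tested, with a median of 0.23. Sgo1, which guards centromere cohesion, was higher by 0.51 while Zwint was at -0.37 (limma, adjusted p = 0.0687 and 0.0883). Among 12 spindle and cytokinesis genes none passed by limma, the median was 0.46, and 6 were higher and 1 lower at an unadjusted p under 0.05. Kif22 was higher by 0.55, Nek2, a centrosome kinase, by 0.83, and Racgap1, a partner of Kif23 at the midzone, was at -0.66 (adjusted p = 0.0796, 0.135 and 0.0842). The jsd mean of Nek2, 6.6, lay below the dim limit, so Nek2 was tested only because its SCARKO-jsd values were higher. Its difference is less sure, and Nek2 is part of the median and of the genes counted as higher in this list.

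For mitotic entry and exit, 1 of 13 tested genes rose and 12 did not pass, 7.69% called against 3.57% of all genes tested, with a median of 0.27. Cks2, which binds Cdk1, was higher by 0.42 and the phosphatase Cdc25a by 0.46 (limma, adjusted p = 0.0891 and 0.129). Of 9 nucleotide genes 1 rose and 8 did not pass, 11.1% called against 3.57% of all genes tested. All 9 had values above 0, where 59.8% of all genes tested did, among them Dut (0.41) and Umps (0.33), with a list median of 0.25. Without SCARKO-jsd 2 the medians were 0.08 for origins and the fork, 0.10 for the kinetochore, 0.20 for the spindle, 0.20 for entry and exit and 0.11 for nucleotides. The median was 0.05 over 12 condensin and cohesin genes, among them Stag1 (-0.25), Ncaph (0.38) and Smc4 (0.23), and 0.19 over 5 D cyclins and kinases, among them Cdk6 (0.25), Ccnd1 (0.20) and Ccnd2 (0.19). No gene of these lists passed by limma, and at an unadjusted p under 0.05 they held 1 and 0 genes. Of 14 inhibitors, pocket proteins and E2F factors 2 fell and 12 did not pass, 14.3% called against 3.57% of all genes tested. Their median was -0.07, and Cdkn2d, the p19 inhibitor, was at -0.39 (limma, adjusted p = 0.0548). Of 7 damage and repair genes 1 fell and 6 did not pass, 14.3% called against the same 3.57%. Their median was 0.03, with Atr, the kinase above Chek1, at 0.41 (limma, adjusted p = 0.0530) and Msh6 at 0.32. Without SCARKO-jsd 2 the medians of these last 4 lists were -0.04 for condensin and cohesin, 0.28 for D cyclins, -0.12 for inhibitors and 0.05 for repair.

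**Figure D4:**
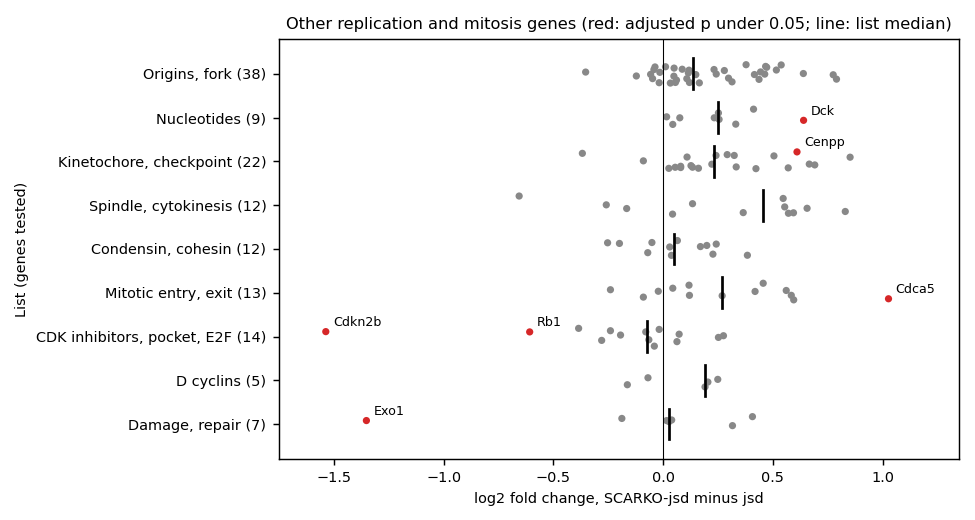
Log2 fold change (SCARKO-jsd minus jsd) of 132 further genes of replication and mitosis, each point a gene and each black line the median of its list, with genes past the threshold in red and named. With all 6 arrays the list medians run from -0.07 for the inhibitors to 0.46 for the spindle list, which is at 0.20 without SCARKO-jsd 2, below the 0.28 of the D cyclin list; vertical scatter within a list has no meaning.

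Markers of spermatogonia were, like the replication and mitosis genes, lowest in SCARKO-jsd 1 and highest in SCARKO-jsd 2 among the SCARKO-jsd arrays. The same order held for the median of all genes tested (-0.02, 0.14 and 0.03 in SCARKO-jsd 1, 2 and 3), and for the markers of meiosis and spermatids (0.36, 1.03 and 0.79), so it was not particular to spermatogonia. The 11 tested of 16 listed markers of undifferentiated spermatogonia had a mean log2 level of 8.27 to 8.52 in the jsd arrays and 8.5 to 8.86 in the SCARKO-jsd arrays, and their median relative to the jsd mean was 0.14, 0.66 and 0.38 in SCARKO-jsd 1, 2 and 3. Bcl6b, Pou5f1 and Eomes of that list were dim. Uchl1 rose by 0.68, Dazl by 0.82, and Id4, a factor of the stem cells, fell by 1.17 on the log2 scale (limma, adjusted p = 0.0172, 0.0375 and 0.0173). Of the 11, 7 were above 0, or 63.6%, where 59.8% of all genes tested were. Besides Id4, Etv5 (-0.425), Zbtb16 (-0.06) and Ret (-0.03) were below 0, without a call. Dazl and Ddx4, the highest of the list (1.06, limma, adjusted p = 0.0555), are not limited to undifferentiated cells. The list therefore does not read those cells alone. The 4 tested of 6 markers of differentiating spermatogonia had levels of 7.73 to 8.15 and 8.31 to 8.92 and medians of 0.39, 1.13 and 0.82, with Dmrtb1 and Rec8 dim. Stra8, a gene switched on by retinoic acid ahead of meiosis, rose by 0.99 (adjusted p = 0.0379), and Sohlh1 was higher by 0.89 (adjusted p = 0.0518). The jsd mean of Sohlh1, 6.45, lay below the dim limit, so Sohlh1 was tested only because its SCARKO-jsd values were higher. Its difference is less sure, and Sohlh1 is part of the levels and medians of this list. Kit of the same list was at -0.03. The part of spermatogonia in the level of the replication and mitosis genes was not tested.

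Among 16 markers of meiosis and spermatids, 6 were bright enough to be tested, with levels of 7.58 to 7.82 and 8.09 to 8.53, and Sycp3 and Meig1 rose by 1.31 and 0.84 (limma, adjusted p = 0.00390 and 0.0200). Sycp2, Spo11, Dmc1, Hormad1, Pgk2, Acrv1, Acr, Prm2, Tnp1 and Tnp2 of that list were dim. The 16 tested of 17 Sertoli cell markers had a median of -0.07, and Rhox5 and Wt1 fell (limma, adjusted p = 0.000313 and 0.0394). Wt1 fell by 0.48 on the log2 scale; no fold is given for Rhox5, whose SCARKO-jsd values all lay below the dim limit of 6.64. No gene passed by limma among 5 markers of Leydig cells (median 0.05; Hsd17b3 0.25, Star 0.15), 6 of myoid cells (0.04; Tagln 0.20, Tpm1 0.08) and 8 of macrophages (-0.07; Fcer1g -0.33, Cd68 -0.20), and at an unadjusted p under 0.05 these held 0, 0 and 1 genes. The 5 tested of 6 endothelial markers, Pecam1 being dim, had a median of 0.18 (0.00 without SCARKO-jsd 2). They stood at 0.71 in SCARKO-jsd 2 against 0.01 and 0.02 in the other SCARKO-jsd arrays. Of the 5, 4 were above 0, where 59.8% of all genes tested were. These were Vwf (0.53, limma, adjusted p = 0.142), Tek (0.26), Cdh5 (0.18) and Eng (0.16), none called. Kdr alone was below 0, and it fell by 0.79 (limma, adjusted p = 0.0429). Of these marker calls, Sycp3 and Rhox5 held whichever array was left out. Uchl1 and Id4 lost theirs when SCARKO-jsd 3, jsd 1 or jsd 2 was left out (limma, adjusted p of at most 0.098 and 0.0958), Dazl and Stra8 without jsd 3 as well (0.163 and 0.154), Meig1 without jsd 1, jsd 2 or SCARKO-jsd 1 (0.0969), and Wt1 and Kdr without any of the 5 arrays other than SCARKO-jsd 2 (0.187 and 0.175).

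**Figure D5:**
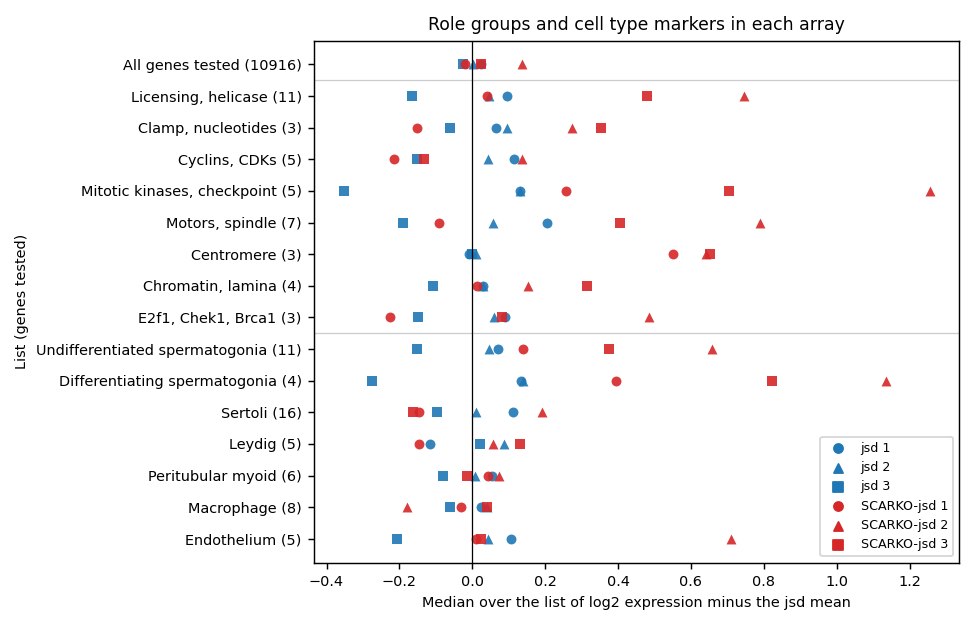
Median over each list of log2 expression minus the jsd mean, in every array, for all genes tested, the role groups and cell type markers (number of tested genes in brackets; blue, jsd; red, SCARKO-jsd; circles, triangles and squares, replicates 1, 2 and 3). SCARKO-jsd 2 and SCARKO-jsd 3 lie to the right for most role groups and both spermatogonial lists, and for the centromere group SCARKO-jsd 1 does too, at 0.55.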

How the data were processed

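The authors deposited log2 values of each probe set; RMA and affy are named in the submitters' processing notes, without versions. RMA brings all arrays to a shared distribution, so a shift of most transcripts at once cannot be seen. Values ran from 2.58 to 14.84 and array medians from 6.26 to 6.41, with 0 missing. The annotation of the platform at GEO, possibly outdated, gave 1 symbol for 34958 of 45101 probe sets, several for 932 and none for 9211; 34754 were found by gene ID in RefSeq (GRCm38.p6) and 0 symbols changed. Probe sets with several symbols named no gene. Each gene was read from its brightest probe set over the 6 arrays, and genes in the lowest 40% (mean up to 6.64) were left out.

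The 10916 others were tested with limma 3.58.1 (lmFit and eBayes without trend, R 4.3.3) in a two-sided comparison of the genotypes, with Benjamini-Hochberg adjustment, at 0.05. The fit was tested on simulated data. The design text of the series names 3 mice for each genotype, though nothing in the labels ties an RNA to a mouse. The p-values reflect only how far these samples spread. Differences between mice and technical ones cannot be told apart in that spread, and 3 arrays a group limit the precision. The members and lists were chosen with earlier results of these data known, so no test was made over a list. Named by rule were all members, with arrays' values for those called and those of largest difference, the 3 genes of smallest p in each further list and the 2 in each marker list. Other values by array (among them Pcna, Mcm5, Gins1, Cdt1, Cdk2, Kif23, Tpx2, Mki67 and Hmgb2) were added after they were seen. So were Etv5, Zbtb16, Ret and Kit, as spermatogonial markers below 0. Ddx4, Sycp1, Smc1b, Prm1, Ldha, Tek, Cdh5 and Eng were added likewise, to show more of their lists. The targeted gene is not reported here. Python 3.11.15 and matplotlib 3.10.9 drew the figures.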

Additional observations from a re-analysis of the deposited data

How the results depend on the processing

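The alternatives were no filter or a 60% filter on dim genes, the mean of probe sets or every probe set by itself, median centring, a further quantile normalization, trend and robust, arrayWeights (which stopped before converging), a replicate block, other thresholds and each array left out. The members' median kept its sign under all of them, at 0.25 to 0.43 apart from the arrays left out (0.198 without SCARKO-jsd 2 to 0.553 without SCARKO-jsd 1). With median centring it was 0.43 (all genes 0.09), with 34 of 41 above 0. The 4 calls among members became 2 with the 60% filter, 1 with the mean of probe sets, 2 with every probe set, 2 with median centring, 8 with arrayWeights, 0 at a threshold of 0.01 and 9 at 0.1; with 1 array left out they ranged from 0, without jsd 1, jsd 2 or SCARKO-jsd 3, to 7, without SCARKO-jsd 1. They were 3 with no filter, quantile normalization or trend and robust. The 6 calls in the further lists became 3 with the mean of probe sets, every probe set or median centring, 18 with arrayWeights, 1 at 0.01 and 18 at 0.1, and 0 to 12 with 1 array left out. For all genes called, 390 became 246 with every probe set, 860 with arrayWeights, 111 at 0.01 and 728 at 0.1, and 78 to 768 with 1 array left out. The cause was not tested, except that the 60% filter tested 15 members in place of 41. The mean of probe sets tested 34, with Cenpe and Cenpf left out as dim. None of the 10 called genes changed sign; 9 members that were not called did under at least 1 setting (Mcm3, Mcm4, Pcna, Rrm2, Ccne1, Kif4, Lmnb1, Chek1 and Brca1).

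The replicate number was not taken as a pairing: deviations of same-numbered arrays correlated at -0.21, 0.23 and 0.24, and not every array correlated best with its own number. With it as a block, 397 genes and 4 members were called (adjusted p under 0.05, limma), Bub1 in place of Cenpe (adjusted p = 0.0591). Of the further lists 9 genes were then called, but Cenpp was not (limma, adjusted p = 0.0566).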
